A study of Mus musculus with 6 samples.

Results

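The genes of interferon beta, of both chains of the type I and the type II interferon receptor and of the Janus kinases Jak1, Jak2 and Tyk2 were followed in mouse astrocytes that expressed a mutant BRAF kinase. The members were 8 named genes (Ifnb1, Ifnar1, Ifnar2, Ifngr1, Ifngr2, Jak1, Jak2 and Tyk2) out of the 55357 genes in the deposited expression table, and each was found there once. They were selected on the difference between the 2 groups described here, so that difference is given with its interval as a description. Where members are counted by a test's threshold, the count is read only beside that of all genes and is no evidence for them. RNA was sequenced from primary astrocytes of the cortex of C57BL/6 embryos at embryonic day 18, grown for 7 days, shaken for 6 hours and then kept in a medium with HB-EGF and B-27. The KE group was 3 cultures transfected with BRAF K499E and collected 48 hours later, and the NT group was 3 naive cultures that were not transfected. For its immunostained astrocytes, the paper describes a plasmid in which the CMV promoter drives FLAG-tagged BRAF K499E, given together with a GFP plasmid. The paper does not say whether the sequenced cultures received both. No cultures with an empty plasmid or with wild-type BRAF were analysed here, so an effect of BRAF K499E and an effect of plasmid transfection cannot be told apart. The labels do not say whether the 3 cultures of a group came from separate animals, and the intervals and p-values then measure only the spread between these cultures.

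Interferon beta is a secreted cytokine whose gene is silent in most resting cells and is switched on through sensors of foreign or misplaced nucleic acid. All type I interferons bind a shared receptor made of IFNAR1 and IFNAR2, which carry the kinases TYK2 and JAK1, whereas interferon gamma binds IFNGR1 and IFNGR2, which carry JAK1 and JAK2. The kinases phosphorylate STAT proteins, which enter the nucleus and drive interferon-stimulated genes. In the brain, astrocytes and microglia both make and answer type I interferon.

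Values are normalized counts, that is estimated read counts per gene after scaling between cultures, and they summed to about the same total in each culture. Approximate depth lay between 24500000 reads in KE replicate 2 and 34100000 reads in KE replicate 1. Across genes, Pearson's r was at least 0.9885 within a group and at most 0.950 between groups. Braf was 34933 to 40978 in KE and 811 to 946 in NT. Of 10 astrocyte markers, 7 were called higher, 1 lower (Gja1, log2 difference -0.46) and 2 were not called. A call is an adjusted p under 0.05 in the limma comparison. Over all tested genes, 25.3% were called higher and 26.0% lower. The summed level of the astrocyte markers was 194523 to 200354 in KE and 142105 to 150693 in NT, and S100b was low in all cultures at 11.8 to 31.5. All 16 microglia and macrophage markers were called lower in KE, with a median log2 difference of -3.32 (range -4.07 to -0.88), and their summed level was 5920 to 8349 in KE against 49496 to 58572 in NT. Of 7 tested oligodendrocyte lineage markers 6 were called lower, with a median of -0.74 and a summed level of 7650 to 9024 against 12196 to 12708. Of 5 tested neuron markers 2 were called lower and 1 higher, with sums of 6414 to 6591 against 8448 to 9154. In bulk RNA, fewer cells of a type and less RNA per cell cannot be told apart. The part of these marker shifts in the results that follow was not tested.

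Ifnb1, the only member that NT cultures lacked, is encoded on the minus strand of chromosome 4 (GRCm39 chr4:88440262-88441011), and its 5′ flank is shown because this gene had the clearest change of all members. The RefSeq promoter window (table build GRCm38.p6), from 250 bases before to 50 bases after the start, was placed in GRCm39 by an exact match, as were those of all 8 members. In the stretch at chr4:88441128-88441200, -169 to -97 from the RefSeq start on the gene's strand, capitals mark 3 matches to the letters AANNGAAA, a core bound by interferon regulatory factors, and after them 1 match to GGGNNNTTCC, a core bound by NF-kappa B.
Ifnb1: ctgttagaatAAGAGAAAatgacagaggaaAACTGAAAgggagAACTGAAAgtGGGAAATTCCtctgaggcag
Searched on both strands, AANNGAAA is present in 24.2% and GGGNNNTTCC in 5.52% of the 27025 mouse promoter windows of 300 bases, and the former was added to the search after this sequence had been seen. AANNGAAA matches can overlap the longer letters GAAANNGAAA, the core of the interferon-stimulated response element, which is present in 3.49% of the windows and in the window of 0 of the 8 members. A match is a description of letters and not of binding.

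Ifnb1 transcripts were detected in each KE culture and in none of the NT cultures. Ifnb1 (ENSMUSG00000048806) was 233, 198 and 235 normalized counts in KE replicates 1 to 3 and was listed at 0 in NT replicates 1, 2 and 3. The 3 KE cultures lay close together, at 222 ± 20.5 (SD, n = 3), and the lowest was KE replicate 2, the least deeply sequenced. The coefficient of variation over these cultures was 9.25%, against a median of 7.45% over all tested genes in KE. No fold is given against a group listed at 0, and Ifnb1 passed the filter of a mean of at least 10 through the KE cultures alone. The gene is a single stretch of 750 bases of exon, and no exon of another gene in Gencode overlapped it.

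Few genes shared this pattern. A value of 0 in all 3 NT cultures with at least 10 in all 3 KE cultures was found for 7 genes of the table, Ifnb1 included, and Ifnb1 had the highest mean of them. The others were Ifna4 (79.5), Gm3776 (55.2), Tac1 (41.1), which encodes the precursor of substance P, Ifna5 (22.7), 4930503B20Rik (17.3) and Gm16170 (17.1), each given as its mean in KE. Thus 3 of the 7 were interferon genes.

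Of 20 other interferon genes listed, 12 were at 0 in all 6 cultures and 18 were at 0 in all NT cultures. Ifna4, an alpha interferon, was 90.8, 74.1 and 73.5 in KE and listed at 0 in NT. Ifna5 was 19.8, 30.1 and 18.1 in KE and listed at 0 in NT. Both passed the filter through the KE cultures alone, with no spread in NT, so no test is given for them, and Ifna5 fell below the filter when any 1 KE culture was left out. Ifna2 stayed under the filter at 2.71, 1.25 and 5.44 in KE and 0 in NT. The alpha interferon genes resemble each other, so the division of reads among them is uncertain. Ifng, the ligand of IFNGR1 and IFNGR2, was listed at 0 in every culture, as were Ifnl2, Ifnl3, Ifne and Ifnk. The genes next to Ifnb1 on chromosome 4 had measurable levels in both groups on one side, where Hacd4 and Focad were not called and Mllt3 was higher by a log2 of 0.29. On the other side Ifna15, Ifna14 and Ifna9 were listed at 0 in all cultures.

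The receptor and kinase genes were expressed in both groups and moved by far less. Among the 7 members other than Ifnb1 the median absolute log2 difference was 0.23, against 0.30 over all 15280 tested genes. The threshold for a call was passed by 5 of the 8 members on the higher side (Ifnb1, through KE alone, Ifnar2, Jak1, Jak2 and Tyk2) and by 2 on the lower side (Ifnar1 and Ifngr1), and not by Ifngr2. Without the variance trend 3 passed on the higher side, as Jak2 and Tyk2 missed the threshold. With 1 culture left out, Jak2 missed it without KE replicate 1, KE replicate 3 or NT replicate 3, and Tyk2 without KE replicate 1, KE replicate 2, NT replicate 1 or NT replicate 3. Over all tested genes 51.3% were called, 25.3% higher and 26.0% lower. In 7 of the 8 members KE and NT cultures did not overlap, which held for 59.9% of all tested genes. These counts restate the difference the members were chosen for, and nothing is read from them.

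**Figure D1:**
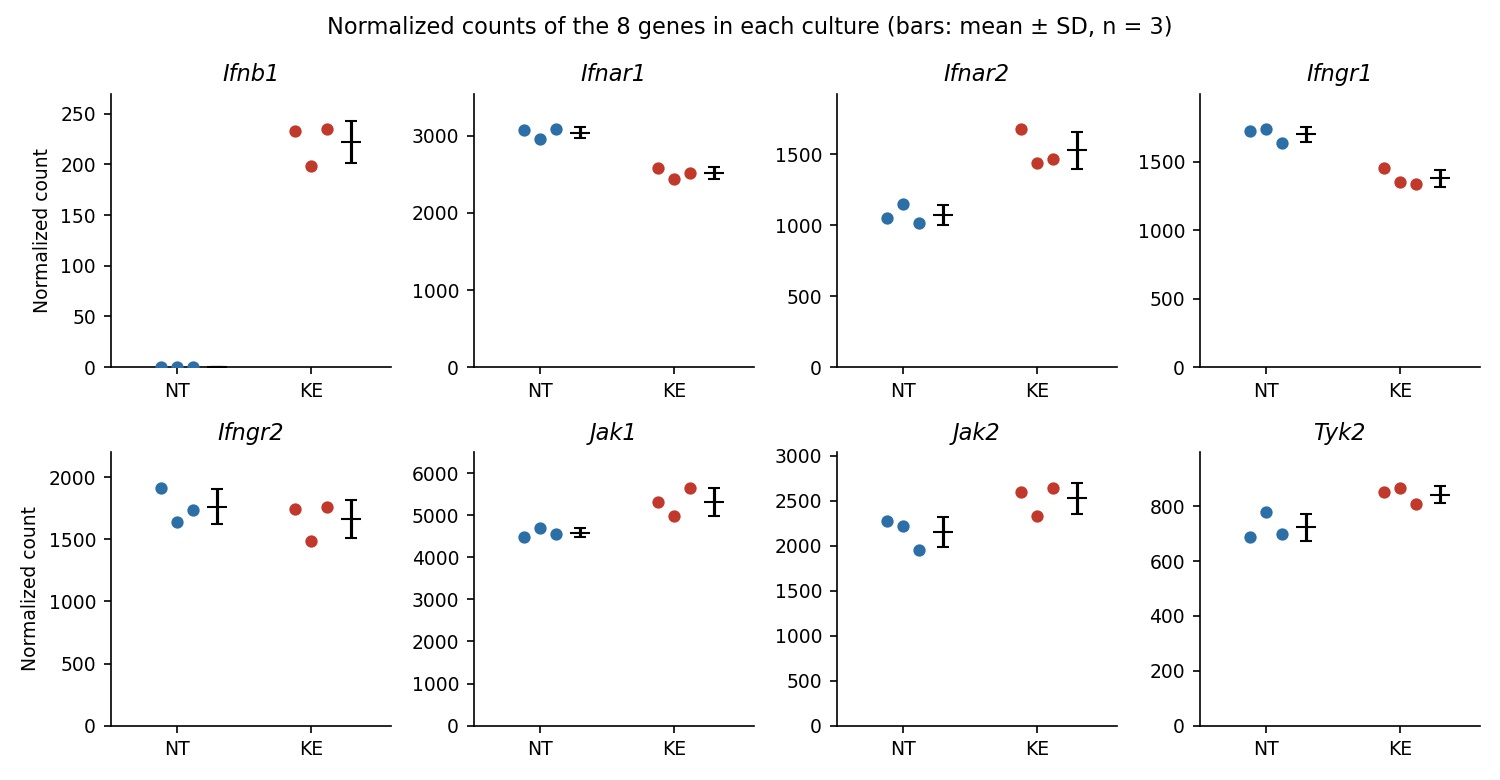
Normalized counts of the 8 member genes in each culture, with 1 panel per gene, KE and NT side by side, 1 point per culture and a bar at the group mean. Ifnb1 lies at 198 to 235 in KE and at 0 in NT, Ifnar2 lies higher in KE, Ifnar1 and Ifngr1 lie lower, and the Ifngr2 cultures overlap.

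Of the type I receptor, Ifnar2 was higher and Ifnar1 lower in KE. Ifnar2 (ENSMUSG00000022971, chr16:91169618-91202723, plus strand), which encodes the chain that carries JAK1 and binds the ligand with high affinity, was 1676, 1440 and 1463 in KE and 1047, 1151 and 1018 in NT. Every KE culture lay above every NT culture, with KE replicate 1 the highest. The means were 1526 ± 130 and 1072 ± 69.4 (SD, n = 3 each), a log2 difference of 0.51 (95% interval 0.33 to 0.68), which in absolute size exceeded that of 70.3% of the tested genes. Ifnar1 (ENSMUSG00000022967, chr16:91281942-91305789, plus strand), which encodes the chain that carries TYK2, was 2588, 2440 and 2523 in KE and 3075, 2961 and 3085 in NT. All KE cultures lay below all NT cultures. The means were 2517 ± 74.0 and 3041 ± 68.9, a log2 difference of -0.27 (95% interval -0.39 to -0.15).

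The balance of both chains therefore differed between the groups in each culture. The ratio of Ifnar2 to Ifnar1 normalized counts was 0.648, 0.590 and 0.580 in KE and 0.341, 0.389 and 0.330 in NT. The groups did not overlap, and the means were 0.606 ± 0.0364 and 0.353 ± 0.0312. The table gives 1 value per gene, so transcripts for the membrane-bound and the soluble form of IFNAR2 are not separated. A gene model without counts, Gm21970, shares 747 bases of exon with Ifnar2 on the same strand and was listed at 0 in all cultures.

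Of the type II receptor, the ligand-binding chain was lower in KE and the other chain overlapped between the groups. Ifngr1 (ENSMUSG00000020009, chr10:19467697-19485977, plus strand) was 1452, 1349 and 1339 in KE and 1724, 1738 and 1640 in NT. The groups did not overlap, and the log2 difference was -0.30 (95% interval -0.44 to -0.16). Ifngr2 (ENSMUSG00000022965, chr16:91343906-91362512, plus strand), which encodes the chain that carries JAK2, was 1740, 1485 and 1758 in KE and 1915, 1637 and 1732 in NT. The ranges overlapped, and replicate 2 was the lowest culture of both groups. The log2 difference of Ifngr2 was -0.09 (95% interval -0.27 to 0.10). The ratio of Ifngr2 to Ifngr1 was 1.20 ± 0.107 in KE and 1.04 ± 0.0859 in NT with overlapping cultures, whereas the ratio of Ifnar2 to Ifngr2, at 0.922 ± 0.0776 and 0.613 ± 0.0808, did not overlap. The ratio of Ifnar1 to Ifngr1, which were both lower in KE, was 1.82 ± 0.0530 and 1.79 ± 0.0886, with overlapping cultures.

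All KE cultures lay above all NT cultures in the 3 kinase genes, with log2 differences of 0.21 to 0.23. Jak1 (ENSMUSG00000028530, chr4:101008838-101122487, minus strand), whose product serves both receptors, was 5314, 4974 and 5653 in KE and 4491, 4695 and 4560 in NT, a log2 difference of 0.21 (95% interval 0.08 to 0.34). Jak2 (ENSMUSG00000024789, chr19:29228677-29290505, plus strand), the kinase of IFNGR2, was 2602, 2334 and 2647 in KE and 2282, 2222 and 1959 in NT, a log2 difference of 0.23 (95% interval 0.06 to 0.40). Tyk2 (ENSMUSG00000032175, chr9:21015363-21042689, minus strand), the kinase of IFNAR1, was 851, 867 and 808 in KE and 689, 781 and 700 in NT, a log2 difference of 0.22 (95% interval 0.05 to 0.39). For Jak2 and Tyk2 the nearest KE and NT cultures were close, at 2334 and 2282 for Jak2 and at 808 and 781 for Tyk2.

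The proportions of the kinase genes to each other overlapped between the groups. The ratio of Jak2 to Jak1 was 0.476 ± 0.0120 in KE and 0.470 ± 0.0393 in NT, and that of Tyk2 to Jak1 was 0.159 ± 0.0157 and 0.158 ± 0.00739, with overlapping cultures in both. Jak1 shares 1950 bases of exon with Raver2 on the opposite strand. Raver2 was 868 to 960 in KE and 1003 to 1055 in NT and was not called. Tyk2 shares 556 bases with 1700084C06Rik on the opposite strand, which reached at most 4.96 normalized counts, and Jak2 shares 225 bases with Gm59364. Whether the counting used strand is not given in the sources used here, so reads in these stretches cannot be assigned with certainty.

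**Figure D2:**
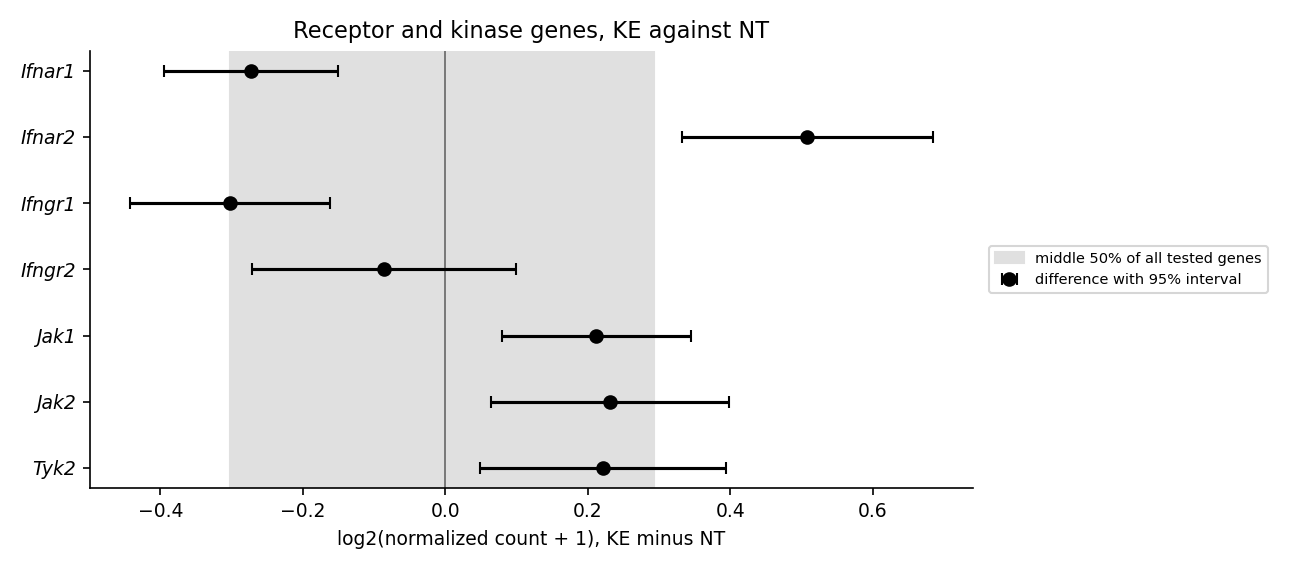
Log2 difference, KE minus NT, of log2(normalized count + 1) for the receptor and kinase genes, with points for the estimate, bars for the 95% interval of the limma comparison and a band for the middle 50% of all tested genes. Ifnar2 alone lies outside the band on the higher side, at 0.51, and the interval of Ifngr2 crosses 0.

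Levels can be compared between genes only per length. Per kilobase of merged exons, the order in NT was Ifngr1 (597 ± 18.6), Jak1 (423 ± 9.57), Ifngr2 (390 ± 31.3), Ifnar1 (375 ± 8.48), Jak2 (340 ± 27.1), Ifnar2 (287 ± 18.6) and Tyk2 (82.7 ± 5.72), followed by Ifnb1 at 0. In that order, Jak1 and Ifngr2 overlapped, as did Ifngr2 and Ifnar1. In KE the order was Jak1 (491 ± 31.4), Ifngr1 (485 ± 21.9), Ifnar2 (408 ± 34.7), Jak2 (399 ± 26.8), Ifngr2 (368 ± 33.9), Ifnar1 (310 ± 9.12), Ifnb1 (296 ± 27.4) and Tyk2 (96.3 ± 3.50). The pairs Jak1 and Ifngr1, Ifnar2 and Jak2, Jak2 and Ifngr2, and Ifnar1 and Ifnb1 overlapped.

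**Figure D3:**
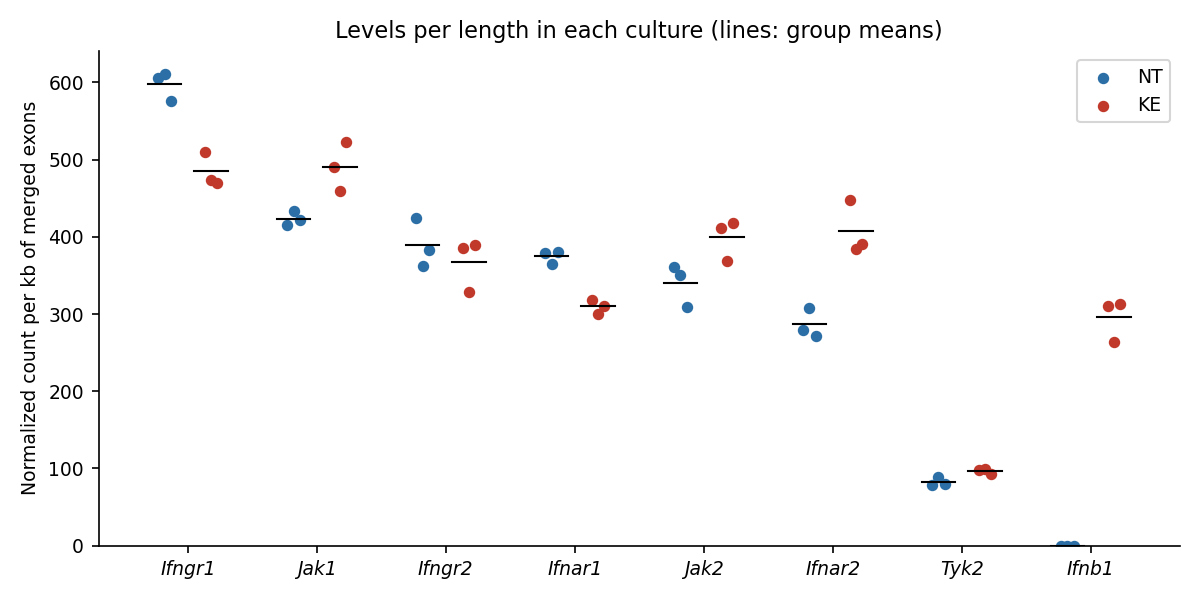
Normalized count per kilobase of merged exons for each member gene in KE and NT, 1 point per culture. Ifnb1 at 296 in KE lies near Ifnar1 at 310, and Tyk2 is the lowest expressed gene in KE at 96.3.

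On this scale the level of Ifnb1 in KE was close to that of Ifnar1, and Tyk2 stayed well below the other kinases in both groups. Ifnar2 moved from below Jak2 and Ifngr2 in NT to beside them in KE. The order depended on the length used. With the length of the canonical transcript, Ifnar1 stood above Ifnar2 in both groups, at 615 against 464 in KE and at 743 against 326 in NT, and Ifnb1 in KE stayed at 296, below all members but Tyk2.

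Ifnar2, Ifnar1 and Ifngr2 lie in one stretch of chromosome 16 together with Il10rb, which encodes a chain of the receptors for interleukin 10 and interferon lambda. Within this stretch, neighbours moved in different directions. Il10rb, whose start lies 33.4 kb from that of Ifnar2, was 454, 396 and 514 in KE and 855, 850 and 655 in NT, a log2 difference of -0.79 (SE 0.13, adjusted p = 3.52e-04 from limma), and the groups did not overlap. Ifnar1 started at 112 kb and Ifngr2 at 174 kb from the Ifnar2 start. On the far sides, Olig1 (-0.20), Olig2 (-0.55), Tmem50b (-0.49) and Gart (-0.40) had negative log2 differences, and Dnajc28 (0.29) and 4932438H23Rik (0.02) were not called.

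**Figure D4:**
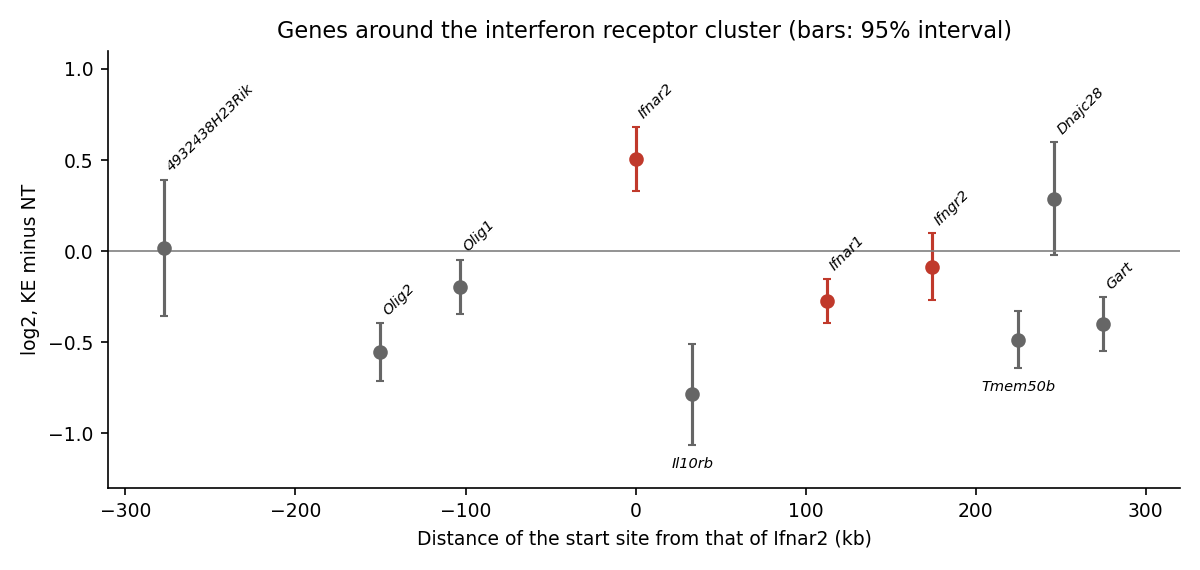
Log2 difference, KE minus NT, of each tested gene around the interferon receptor cluster against the distance of its start site from that of Ifnar2 in kilobases, with bars for the 95% interval and the 3 member genes in red. Ifnar2 stands at 0.51 beside Il10rb at -0.79, and Ifnar1 (-0.27) and Ifngr2 (-0.09) lie between them in value.

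The promoter windows of the receptor and kinase genes were of another kind than that of Ifnb1. GC content of the Ifnb1 window was 42.7% with 3 CpG, against 57.0% to 81.0% with 14 to 44 CpG in the windows of the 7 other members. Counted from the RefSeq start along the gene's strand, the gene start in Gencode lay at 0 for Ifngr1, 20 for Ifnb1, -41 for Ifngr2, -53 for Ifnar2, -67 for Jak1, -118 for Tyk2, -161 for Ifnar1 and -526 for Jak2, whose whole window is thus inside its Gencode gene. The letters TTCNNNGAA, to which STAT dimers bind, were present in 8.47% of all windows and in those of Ifnar1, across the RefSeq start at -5 to 4, and Ifnar2. GGGNNNTTCC was present in that of Ifngr2 as well as of Ifnb1, and TGANNTCA, bound by AP-1 and CREB family factors, in 14.3% of all windows and in that of Jak1 at 2 places. The matches, in capitals, are shown with 10 bases on each side, as they are the only ones in receptor and kinase windows apart from the match in Ifnar1. They lie at chr16:91169447-91169475 for Ifnar2, at chr16:91343862-91343891 for Ifngr2, where the match is on the opposite strand, and at chr4:101122639-101122666 and chr4:101122504-101122531 on the minus strand for Jak1.
Ifnar2: tgccaaggccTTCCTGGAAgaagagagta
Ifngr2: ggaacaccggGGAAAGTCCCcacgggccgg
Jak1, far match: atgtccagttTGAGTTCAattctcacaa
Jak1, near match: gagcagcttcTGACGTCAcgggggctgg

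Genes related to the receptors and kinases moved in both directions. Of 8 relatives listed, 6 were tested, with 2 called higher, 2 lower and 2 not called. The median log2 difference of the relatives was 0.31, against 0.00 over all tested genes, of which 25.3% were called higher and 26.0% lower. F3, which encodes tissue factor and shares the receptor fold, was higher (0.66 ± 0.07 SE, adjusted p = 1.85e-05), and so was Il20rb (0.62, adjusted p = 0.0337). Il20rb was 95.2 in NT replicate 3 against 181 and 173 in the other NT cultures, and without that culture its log2 difference was 0.33 and was not called. Its call was also lost without the variance trend and without any 1 KE culture. Il10ra, found mostly on white blood cells, was lower by a log2 of -3.21, as were the microglia and macrophage markers. Ifnlr1 (0.47) and Jak3 (0.14), at 453, 480 and 465 in KE and 452, 430 and 384 in NT, were not called.

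Among 13 tested receptors of other cytokines that signal through JAK kinases, 4 were called higher, 5 lower and 4 not called. Their median was -0.11, and over all tested genes 25.3% were called higher and 26.0% lower. Higher were Ghr (0.65), Il4ra (0.57) and Osmr (0.45), the receptors of growth hormone, interleukin 4 and oncostatin M. The largest falls were those of Csf2rb (-3.58), Il2rg (-3.44) and Il21r (-3.02), receptor chains of blood cells. These falls were of the size seen in the microglia and macrophage markers.

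Downstream of the kinases, Stat2 (1.68) and Irf9 (0.87), whose products act together on interferon-stimulated genes, were called higher in KE. Stat2 rose 3.20-fold, with means of 7343 ± 402 in KE and 2295 ± 175 in NT (SD, n = 3 each), while the receptor and kinase members other than Ifnb1 lay between 0.811-fold and 1.42-fold. Stat5a (0.58) and Stat3 (0.33) were higher by less, Stat6 (-0.51), the factor of interleukin 4, was lower, and Stat5b (-0.01) was not called, each value being a log2 difference.

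Genes that restrain the receptors and kinases went in both directions. Of 14 tested, 3 were called higher, 5 lower and 6 not called, with a median of -0.03. Over all tested genes 25.3% were called higher and 26.0% lower, and the list was not tested against them. Usp18, which binds IFNAR2 and limits its signalling, was 12771, 13348 and 12252 in KE and 1905, 2156 and 1433 in NT, a log2 difference of 2.82 (SE 0.12, adjusted p = 2.17e-08). Socs1 (1.31), which blocks JAK kinases, and Ptpn2 (0.89), a phosphatase of JAK and STAT proteins, were also higher. Ptpn6 (-3.15), a phosphatase of blood cells, Sh2b3 (-0.70), Socs3 (-0.50) and Ptpn1 (-0.27) were lower.

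Upstream of Ifnb1, of 19 tested sensors, adaptors and factors of its induction, 9 were called higher, 2 lower and 8 not called, with a median of 0.21. Of all tested genes 51.3% were called, 25.3% higher and 26.0% lower, and this list was not tested against them. Upstream refers to the place in the pathway. No time course was measured, so whether these genes changed before or after Ifnb1 was not tested. Irf7, the factor that amplifies type I interferon expression, was 21714, 24490 and 22212 in KE and 1661, 2123 and 1215 in NT, a log2 difference of 3.81 (SE 0.15, adjusted p = 1.75e-08). The nucleic acid sensors Zbp1 (2.59) and Ifih1 (2.20) were higher, and so was Hmga1 (0.69), an architectural protein of the Ifnb1 enhancer. Sting1 (-0.92), the adaptor of the DNA sensor cGAS, and Crebbp (-0.21), a coactivator, were lower, and the call of Crebbp was lost without the variance trend and without KE replicate 1, KE replicate 2, NT replicate 1 or NT replicate 2. Cgas (-0.22), which encodes a DNA sensor, and Irf3 (-0.22) and Tbk1 (0.07), a factor and a kinase of Ifnb1 induction, were not called. However, Irf3 was called lower without KE replicate 2 and with a replicate block, and Cgas without the variance trend.

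All 30 interferon-stimulated genes listed were called higher, against 25.3% of all tested genes. Their median log2 difference was 2.34 (range 0.99 to 4.64). The list was chosen with the rise of such genes in these cultures known, and it is no independent evidence of that direction. The largest differences were those of Mx2 (4.64), Mx1 (4.25) and Cxcl10 (4.10), and the most abundant genes were B2m (1.21) and Ifit3 (4.04).

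**Figure D5:**
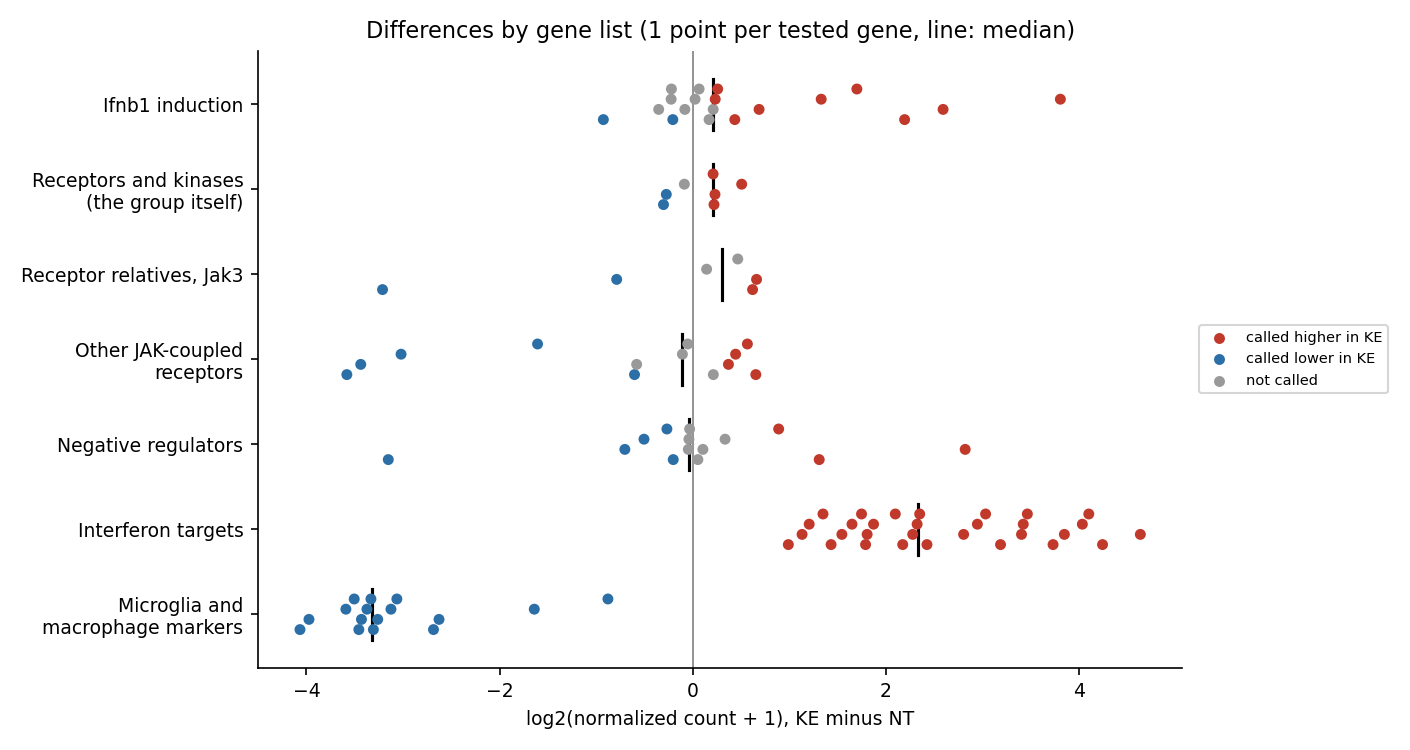
Log2 difference, KE minus NT, of every tested gene in 7 of the lists, 1 point per gene, coloured by its call (for the members a description only), with a line at the median of the list. Interferon targets lie from 0.99 to 4.64 and microglia and macrophage markers from -4.07 to -0.88, whereas receptor and kinase members lie between -0.30 and 0.51, with Ifnb1 left out because it has no fold.

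Other genes followed single members closely across the 6 cultures. Among 12071 genes with a mean of at least 100, the highest Pearson's r of log2 values was 0.999 for F2rl1 with Ifnar1, 0.995 for Atp6v0e with Ifnar2 and 0.998 for Denr with Ifngr1. For the others it was 0.995 for Zkscan8 with Ifngr2, 0.997 for Ppp2r5a with Jak1, 0.997 for Klhl3 with Jak2 and 0.997 for Pex16 with Tyk2. The 6 points share libraries and fall into both groups, so these values only describe the likeness of the profiles.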

How the data were processed

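The authors deposited normalized counts, a signal in which the estimated read count of each gene is divided by a size factor per culture from DESeq2. Per the study's methods, reads were trimmed with TrimGalore, aligned with STAR to GRCm39 and counted with Salmon on Gencode vM28. The methods mention that differential analyses were adjusted for batches, which are not named, and do not say whether the deposited values carry this. The labels' processing notes list GRCh38, a human build, although the gene identifiers are those of mouse. Low values were whole multiples of 1 read too rarely (at most 77.6% within a tolerance of 0.1, with 95% needed) for reads to be recovered. No count test was therefore run, and errors come from the cultures of a group.

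From these values, log2(normalized count + 1) was compared between KE and NT with limma 3.58.1 in R 4.3.3 (variance trend on) in 15280 genes, those averaging at least 10 over the 6 cultures. P-values were two-sided and adjusted by Benjamini-Hochberg over these genes, and calls were made under 0.05. Adding 1 makes differences of low genes appear smaller than they are. The smallest two-sided p that an exact permutation test allows with 3 against 3 is 0.1.

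The members and all gene lists were chosen with earlier results of these data known. Adjusted p-values printed for listed genes are therefore descriptions and no independent evidence. Named were the members, all tested genes of lists with up to 8 of them, otherwise the 3 largest rises and falls and the 2 highest means among called genes, genes with the pattern of Ifnb1 or of another member, and neighbours of the receptor cluster and of Ifnb1. Genes not called, low genes and the neighbours of Ifnb1 beyond this rule were named after their values were seen. Exon lengths and coordinates came from Gencode vM39. Alternatives were other pseudocounts, filters, scalings, no trend, a replicate block and leaving out each culture. Canonical transcript length and quantile normalization for levels per length were added after the data were seen. Some genes this rule names are not reported here.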

Additional observations from a re-analysis of the deposited data

How the results depend on the processing

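No member reversed its direction in any of the 14 alternatives, over which the log2 difference was 0.44 to 0.56 for Ifnar2, -0.30 to -0.25 for Ifnar1, -0.34 to -0.28 for Ifngr1, -0.14 to -0.01 for Ifngr2, 0.17 to 0.26 for Jak1, 0.16 to 0.29 for Jak2 and 0.19 to 0.28 for Tyk2. The total of called genes ranged from 6776 to 8046. Without the trend, 3 members passed the threshold on the higher side instead of 5, as Jak2 and Tyk2 missed it, and 1 receptor relative was called higher instead of 2. On leaving out 1 culture, 3 to 5 members and 1 to 2 receptor relatives were on the higher side of the threshold, and 1 to 3 inducers of Ifnb1 were called lower. Ifna4 and Ifna5 passed the filter through KE alone, so their number says only how many met it, which was 2 of the other interferons, 1 to 2 on leaving out 1 culture and 0 with a mean of at least 50 required. With canonical transcript lengths, neighbours in the order of levels overlapped in 2 pairs in KE and 1 in NT, instead of 4 and 2. The causes of the other changes were not tested. All 30 interferon targets were called higher in each alternative. The edgeR and DESeq2 comparisons were not run, since whole reads could not be recovered. KE replicate 2 had the fewest reads.

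Cultures of KE and NT share replicate numbers, but same-numbered cultures deviated together only weakly (r of 0.0589, 0.0664 and 0.0651 across genes), so they were not taken as pairs, although each of the 6 correlated best with its own number. A replicate block left 8046 genes called instead of 7844, of which 7669 were called in both, and 4 inducers of Ifnb1 (Sting1, Crebbp, Irf3 and Ikbke) were called lower instead of 2.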

Other observations

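Among the NT cultures, 29 of the 30 interferon targets were lowest in NT replicate 3, against 32.0% of all tested genes, and 24 of the 30 were highest in NT replicate 2. The median ratio of NT replicate 3 to the mean of NT replicates 1 and 2 was 0.721 over the targets and 1.00 over all tested genes. Irf7 and Usp18 had the same order. The order was not particular to interferon genes. Of the 16 microglia and macrophage markers, all but P2ry12 were also lowest in NT replicate 3. Ptprc was 1802, 1764 and 1094 in NT replicates 1 to 3, and P2ry12 was 153, 131 and 171. A link between the 2 sets of genes was not tested. Ifnb1 was listed at 0 in all 3 NT cultures.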
